A study of Mus musculus with 6 samples.

Results

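Transcripts of the mitochondrial genome were examined in RNA from spleen cells of C57BL/6 mice that had been given angiotensin II, a peptide hormone that raises blood pressure, from osmotic pumps under the skin. The members are all rows of the deposited table whose gene name starts with mt-, which gave 18 of 17832 genes. Of the 37 mitochondrial genes in the GENCODE M21 annotation, the rows cover 11 of 13 messenger RNAs, both ribosomal RNAs and 5 of 22 transfer RNAs. The other 19, among them mt-Atp8, mt-Nd4l and 17 transfer RNAs, were not analysed here, and the lowest total of any gene in the table was 11 reads. There were 3 libraries of CD8+ cells, numbered 389, 395 and 387, and 3 libraries of CD4+ cells, numbered 385, 393 and 395. Both groups came from treated mice of the same strain, no library of an untreated mouse was used, and the sources used do not give the ages of the mice. The comparison is therefore of sorted populations under treatment, and values are normalised reads, the read counts divided by the authors' size factor for each library.

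The mitochondrial genome is a small circle present in many copies per cell. Its messenger RNAs encode core subunits of respiratory complexes I, III and IV and of ATP synthase, and its ribosomal and transfer RNAs serve the ribosomes that translate them. Both strands are transcribed as long precursors, in which transfer RNAs separate most of the longer genes and are cut out to release them. Most of the mature messengers then receive a poly(A) tail, whereas mature transfer RNAs end in CCA and, in human cells, the ND6 messenger carries no long tail. The proteins and factors that copy, transcribe, process and translate this genome are encoded in the nucleus.

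Recovered reads per library ranged from 10264246 to 14628599. Each library had the coreceptor transcripts of its label, with Cd8a at 3871 to 10001 in the CD8 libraries against 7.45 to 36.8 in the CD4 libraries, and Cd4 at 38.9 to 163 in the CD8 libraries against 4065 to 6313 in the CD4 libraries. All 12 markers of T cells were in the table, and their sum ranged from 10951 in CD8 389 to 48983 in CD4 393. Transcripts of other spleen cells were abundant, since markers of erythroid cells summed to between 44798 and 142416. One library stood apart in ribosomal RNA. Among 12523 genes whose mean was at least 20, 8 were at least 3-fold above every other library in CD8 395, and these were Rmrp, Mir6236, Gm15564, Rn18s, Lars2, 5_8S_rRNA, mt-Rnr2 and mt-Rnr1. The other libraries had between 0 (CD4 395) and 10 (CD4 385) such genes, which in CD8 389, CD8 387 and CD4 385 were mostly immunoglobulin segments, and none of them was a ribosomal RNA.

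Mitochondrial messengers formed a group of abundant transcripts and a group with almost no reads. mt-Co1, the catalytic subunit of complex IV, had 130018, 111898 and 105928 normalised reads in CD8 389, 395 and 387, and 100738, 76710 and 115535 in CD4 385, 393 and 395. It ranked between 1 and 4 among all genes of each library. mt-Cytb, the cytochrome b of complex III, had 54570, 65344 and 41918 in the same CD8 libraries, and 39340, 41592 and 57065 in the CD4 libraries. Both genes were lowest in a CD4 library, and for both the groups overlapped, because CD4 395 was higher than 2 of the CD8 libraries. The complex I messengers mt-Nd1, mt-Nd2, mt-Nd4 and mt-Nd5 had mean values over all 6 libraries of 24799, 16749, 16965 and 19354. Each of these 4 was highest in a library numbered 395, and none ranged more than 2.32-fold between libraries.

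The remaining messengers were far lower. mt-Nd6, another complex I subunit and the only messenger in the table on the opposite strand, had 79.6, 125.5 and 88.9 in CD8 389, 395 and 387, and 83.0, 158 and 138 in CD4 385, 393 and 395. mt-Nd3 of complex I had 13.0, 8.13 and 9.23 in the CD8 libraries, and 7.70, 8.91 and 12.8 in the CD4 libraries. mt-Co2 and mt-Co3 of complex IV and mt-Atp6 of ATP synthase had totals over all 6 libraries of 32, 16 and 15 reads. Their highest values were 6.97, 4.63 and 6.97, and 3 reads correspond to a value of 2.52 to 3.49. No fold change is given for these 4 genes, which did not pass the filter of the test. mt-Co1, which encodes a subunit of the same enzyme as mt-Co2, had a total of 658149 reads.

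**Figure D1:**
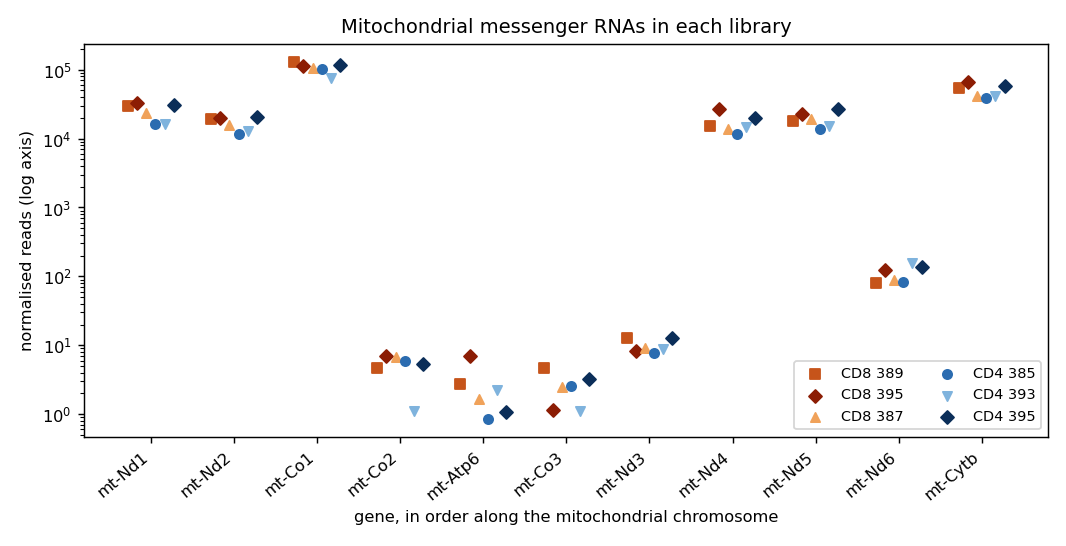
Normalised reads (log axis) of the 11 messenger RNAs in each of the 3 CD8 and 3 CD4 libraries, with genes in their order along the mitochondrial chromosome and 1 point per library. mt-Co2, mt-Atp6, mt-Co3 and mt-Nd3, which are neighbours among the messengers analysed here, had at most 13.0 normalised reads in any library, while mt-Co1 before them and mt-Nd4 after them had at least 11527.

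The 4 messengers with almost no reads were those with a near-identical copy of nearly their whole length in the nuclear genome. Among the annotated transcripts of GENCODE M21 outside the mitochondrial chromosome, 7 pseudogenes matched a mitochondrial messenger at 99% identity or more over at least 100 bases. All 7 lie on chromosome 1, where they are 7 neighbouring genes, and they match a run of mitochondrial genes from the last part of mt-Co1 to the first part of mt-Nd4. The copies covered 99.6% of mt-Co2, 99.6% of mt-Atp6, 99.9% of mt-Co3 and 99.1% of mt-Nd3, and also 98.99% of mt-Nd4l, which was not analysed here. Also not analysed was mt-Atp8, which lies in the same run between mt-Co2 and mt-Atp6. No annotated transcript matched mt-Atp8 at 99% identity or more over at least 100 bases, and shorter matches were not counted. The copies covered 31.3% of mt-Co1 and 63.6% of mt-Nd4, and 0 bases of mt-Nd1, mt-Nd2, mt-Nd5, mt-Nd6 and mt-Cytb. Among the annotated transcripts, the best match outside the mitochondrial chromosome was 96.7% for mt-Nd2, 95.2% for mt-Nd5, 93.6% for mt-Nd6 and 92.9% for mt-Cytb. Of these 5 genes, mt-Nd1 had no match at 85% or more over at least 100 bases. Nuclear sequence outside the annotated transcripts was not searched.

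The first 60 bases of mt-Co2 are shown beside those of its copy, because no base separates them over the 681 bases aligned, and the next pairs show how the copies of abundant messengers differ. Bases are 5′ to 3′ from the GENCODE M21 transcripts (GRCm38), and capitals mark bases that differ within a pair.
mt-Co2, bases 1 to 60: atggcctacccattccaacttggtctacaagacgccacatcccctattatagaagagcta
Gm28661 on chromosome 1, bases 1 to 60: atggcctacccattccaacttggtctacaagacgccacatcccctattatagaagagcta
mt-Co1, bases 1063 to 1122: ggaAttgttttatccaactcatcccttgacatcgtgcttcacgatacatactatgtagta
Gm29216 on chromosome 1, bases 10 to 69: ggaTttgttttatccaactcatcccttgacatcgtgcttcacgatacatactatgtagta
mt-Cytb, bases 2 to 61: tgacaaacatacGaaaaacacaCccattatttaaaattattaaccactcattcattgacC
Gm11410 on chromosome 4, bases 2 to 61: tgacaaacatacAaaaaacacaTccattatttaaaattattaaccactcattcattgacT
Counted from the first base of the mitochondrial gene, the difference between mt-Co1 and Gm29216 was A1066T, the only 1 in 483 aligned bases. mt-Cytb and Gm11410 differed at G14A, C24T and C61T in the window shown and at 81 of 1142 aligned bases.

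The copies themselves were also low. Gm28661, the copy of mt-Co2, had 30.5, 66.2 and 19.3 normalised reads in CD8 389, 395 and 387, and 22.3, 51.3 and 33.0 in CD4 385, 393 and 395. Gm10925, the copy of mt-Atp6, averaged 42.6 over the 6 libraries and Gm28437, the copy of mt-Co3, averaged 20.4. Each copy was thus above its own mitochondrial gene, at 7.24, 16.4 and 8.06 times the mean of mt-Co2, mt-Atp6 and mt-Co3. The 6 near-identical copies in the table summed to between 85.6 and 248, and so did not hold reads on the scale of the neighbouring mt-Co1. The sources used do not say how reads that match more than 1 place were counted, and the part of that step in these low values was not tested. The values of mt-Co2, mt-Co3, mt-Atp6 and mt-Nd3 are therefore uncertain as measures of their RNA.

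**Figure D2:**
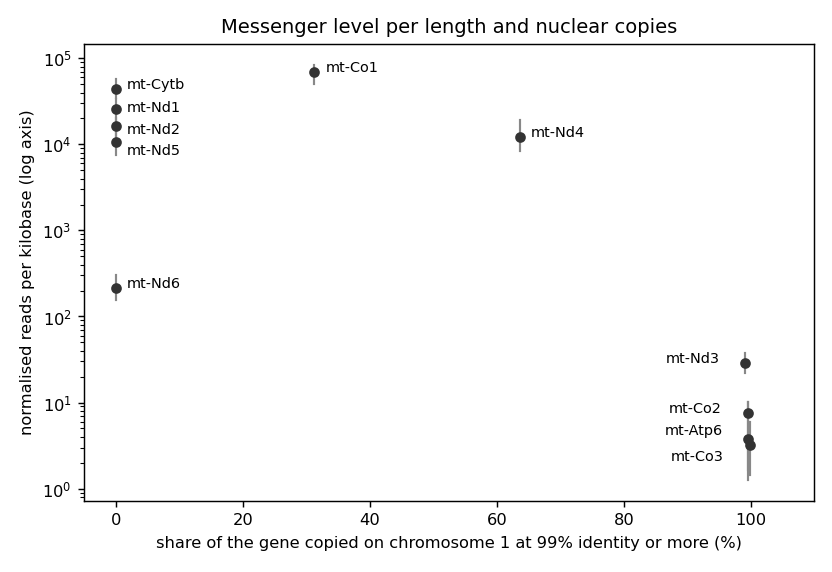
Mean normalised reads per kilobase over the 6 libraries (log axis; vertical lines run from the lowest to the highest library) against the share of each messenger that is copied on chromosome 1 at 99% identity or more. The 4 messengers copied over more than 99% of their length lie at or below 28.6, mt-Nd6 at 216, and the other 6 at 10611 or more.

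Per length, the abundant messengers kept nearly the same order in every library. In normalised reads per kilobase, mt-Co1 averaged 69129 ± 11521 (SD, n = 6), mt-Cytb 43681 ± 9217 and mt-Nd1 25914 ± 7492. mt-Nd2 followed at 16136 ± 3695, mt-Nd4 at 12312 ± 3995 and mt-Nd5 at 10611 ± 2626. mt-Co1 was above mt-Cytb, mt-Cytb above mt-Nd1, and mt-Nd1 above mt-Nd2 in 6 of 6 libraries. mt-Nd2 was above mt-Nd4 in 5 and mt-Nd4 above mt-Nd5 in 4 of 6 libraries. Across libraries the ranges of all these neighbouring pairs overlapped, except those of mt-Cytb and mt-Nd1. Counted over only the bases outside the copies, a length chosen after the copies were seen, mt-Nd4 would stand at 33796 per kilobase in place of 12312, above mt-Nd1, and mt-Co1 at 100569 in place of 69129. mt-Nd6 stood at 216 ± 63.5 per kilobase, below mt-Nd5 in 6 of 6 libraries. Reads of mt-Nd6 and of the opposite strand cannot be told apart here, because the sources used do not give the strand setting of the counting.

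The make-up of the messenger reads varied mainly in the share of mt-Co1. mt-Co1 took 48.8%, 40.02% and 48.2% of the messenger reads in CD8 389, 395 and 387, and 52.0%, 43.1% and 42.7% in CD4 385, 393 and 395. The mean shares were 45.7 ± 4.89% in CD8 and 45.9 ± 5.28% in CD4 libraries (SD, n = 3 each), a difference smaller than the spread. The 6 complex I messengers of the table together came to 63.1%, 91.5% and 67.9% of the mt-Co1 reads in CD8 389, 395 and 387. In CD4 385, 393 and 395 they came to 53.2%, 77.97% and 84.97%. mt-Nd6 was read 2.99, 4.49 and 4.05 times per 10000 reads of the other messengers in the CD8 libraries, and 4.29, 8.89 and 5.11 times in the CD4 libraries. CD4 393 was highest for this proportion of mt-Nd6, CD8 395 was lowest for the share of mt-Co1, and the groups overlapped in each of these ratios, none of which was tested.

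**Figure D3:**
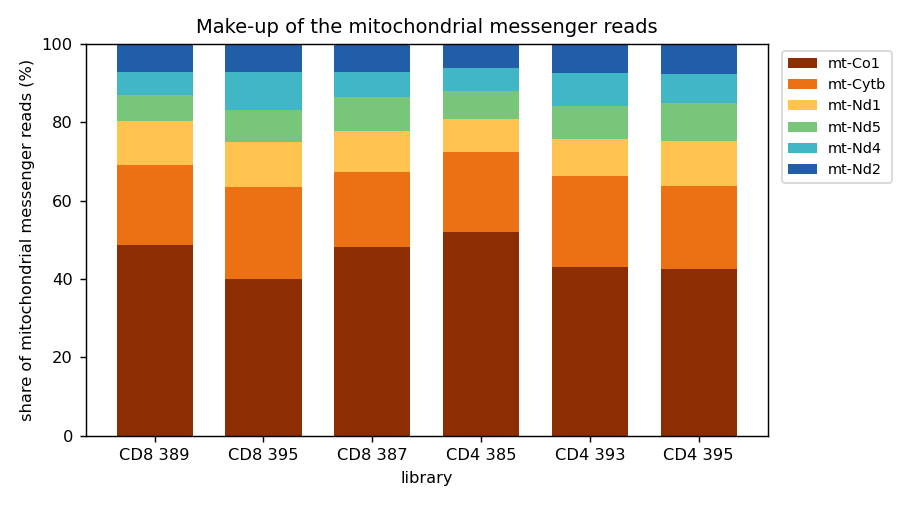
Share of the mitochondrial messenger reads (%) taken by each of the 6 abundant messengers in the 3 CD8 and 3 CD4 libraries, stacked from 0. mt-Co1 took between 40.02% (CD8 395) and 52.0% (CD4 385), and mt-Cytb between 19.1% and 23.4%.

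Messenger reads together were 2.12% (95% Wilson interval 2.12 to 2.13), 2.26% (2.25 to 2.27) and 1.79% (1.78 to 1.80) of all recovered reads in CD8 389, 395 and 387. They were 1.58% (1.58 to 1.59), 1.56% (1.55 to 1.56) and 2.26% (2.25 to 2.27) in CD4 385, 393 and 395. The intervals cover counting error only, and the libraries of a group differed by more than these intervals. Both libraries numbered 395 had the highest share of their group, 2.26%. Group means were 2.06 ± 0.240% in CD8 and 1.80 ± 0.397% in CD4 libraries (SD, n = 3 each), a difference of 0.257 percentage points that is smaller than the CD4 spread. Without CD4 395 the CD8 mean was 0.486 points higher, and without CD8 395 it was 0.157 points higher. In sorted but mixed cells, fewer cells of a type and less RNA per cell cannot be told apart.

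Marker sums of other cells differed between the same libraries. CD8 389, with the second highest messenger share of its group, had the lowest sum of T cell markers (10951) and the highest sums of 16 erythroid markers (142416) and of 12 proliferation markers (90917). CD8 395, with the highest messenger share of its group, had that group's lowest erythroid (73602) and proliferation (43909) sums. The highest erythroid sum of the CD4 group, 101403, was in CD4 385, whose messenger share was 1.58%. CD4 395, with the highest messenger share of its group, had the lowest sum of 12 macrophage and monocyte markers (5448), against 32276 in CD4 385 and 30604 in CD4 393. All 12 macrophage and 16 erythroid markers were in the table. The 8 B cell markers summed to between 62868 (CD8 389) and 119745 (CD8 395), above the T cell sum in every library. Ighm alone held 62053 of that sum in CD8 389 and 117988 in CD8 395, so this order rested on Ighm. Dendritic cell markers, 12 of 12 in the table, summed to 28718 to 44926 in the CD8 libraries and 5079 to 17012 in the CD4 libraries, and the groups did not overlap. Platelet and megakaryocyte markers, 5 of 6 in the table, summed to 431 to 456 in the CD8 libraries and 1036 to 1364 in the CD4 libraries, again without overlap. The gene with the highest mean was Cd74 in the dendritic list and Itgb3 in the platelet list. Such a sum follows its most abundant genes, which other cells may also express. Neither sum was tested. Of the 12 dendritic cell markers tested, 1, Xcr1, was called, and 0 were called in any other marker list. Over all 13877 genes tested, 0.49% were called. No marker in the table was at 0 reads in all 6 libraries, and Ppbp, a platelet chemokine, was at 0 in 1. The part of other cells in the mitochondrial values was not tested.

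Both ribosomal RNAs were much higher in CD8 395 than in any other library. mt-Rnr2, the large subunit RNA, had 2154, 21575 and 2517 normalised reads in CD8 389, 395 and 387, and 2746, 3265 and 4567 in CD4 385, 393 and 395. mt-Rnr1, the small subunit RNA, had 1128, 8516 and 1274 in the CD8 libraries, and 1690, 1573 and 2258 in the CD4 libraries. CD8 395 was 4.72 times (mt-Rnr2) and 3.77 times (mt-Rnr1) above the next highest library, which was CD4 395 for both. The other 2 CD8 libraries lay below every CD4 library. Ribosomal reads were 1.23%, 10.8% and 1.72% of the messenger reads in CD8 389, 395 and 387, and 2.29%, 2.72% and 2.52% in CD4 385, 393 and 395. The messengers did not show this step, since CD8 395 was between 0.861 times (mt-Co1) and 1.35 times (mt-Nd4) the highest other library for the 6 abundant ones. The proportion of mt-Rnr2 to mt-Rnr1 was 1.91, 2.53 and 1.98 in the CD8 libraries, and 1.63, 2.08 and 2.02 in the CD4 libraries, highest in CD8 395.

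RNAs of the cytosolic ribosome were also highest in that library. Rn18s, the RNA of the small cytosolic subunit, had 18230, 345959 and 10974 normalised reads in CD8 389, 395 and 387, and 9336, 24298 and 49035 in CD4 385, 393 and 395. In CD8 395 it was 7.06 times the highest other library, again CD4 395. 5_8S_rRNA of the large cytosolic subunit reached 643 in CD8 395, against 31.7 to 118 elsewhere. Rmrp, the RNA of the endonuclease RNase MRP, reached 91.8, against 0.856 to 11.1 elsewhere. These rows were named after their values were seen. Libraries were made by poly(A) selection, and the part of carried-over ribosomal RNA in the mitochondrial values was not tested. The log2 fold change (CD8 minus CD4) of mt-Rnr2 was 0.50 with all libraries and -0.57 without CD8 395, and that of mt-Rnr1 was 0.34 and -0.60, so both directions rested on that library. DESeq2 gave 1.31 for mt-Rnr2 and 0.98 for mt-Rnr1.

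**Figure D4:**
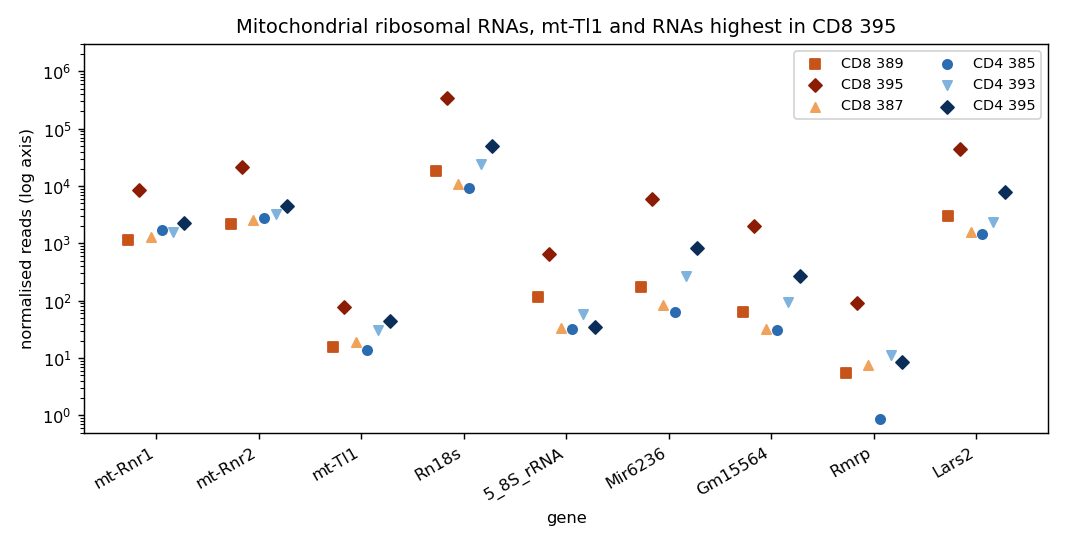
Normalised reads (log axis) of both mitochondrial ribosomal RNAs, the transfer RNA mt-Tl1 and the nuclear genes named in the text in the 3 CD8 and 3 CD4 libraries, with 1 point per library. CD8 395 was the highest library for all 9 genes, with mt-Rnr2 at 21575 and Rn18s at 345959.

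Transfer RNAs had few reads. The 5 in the table summed to 59, 107 and 98 reads in CD8 389, 395 and 387, and to 57, 48 and 87 in CD4 385, 393 and 395. Their number was 2.05, 4.45 and 3.74 per 10000 messenger reads in the CD8 libraries and 2.52, 3.003 and 3.42 in the CD4 libraries, so the groups overlapped. mt-Tl1, which carries leucine and lies between mt-Rnr2 and mt-Nd1, had the highest mean, 33.6. It had 15.7, 76.7 and 19.3 normalised reads in CD8 389, 395 and 387, and 13.7, 31.2 and 44.7 in CD4 385, 393 and 395. As for the ribosomal RNAs, CD8 395 was highest and CD4 395 next. mt-Tl1 reads were 0.356% of the mt-Rnr2 reads in CD8 395, the lowest proportion of the 6 libraries, and 0.236% of the mt-Nd1 reads there, the highest.

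mt-Tw, which carries tryptophan and follows mt-Nd2, was the one member whose groups did not overlap. It had 13.0, 19.8 and 26.9 normalised reads in CD8 389, 395 and 387, from 14, 17 and 32 reads. In CD4 385, 393 and 395 it had 11.1, 2.23 and 5.32, from 13, 2 and 5 reads. Among all genes tested, 4.93% had CD8 libraries that all lay above the CD4 libraries, so 1 of 13 members is near that background. The threonine transfer RNA mt-Tt and the methionine transfer RNA mt-Tm had means of 15.4 ± 3.41 and 11.3 ± 5.00 in CD8 and 17.4 ± 7.10 and 8.73 ± 5.47 in CD4 libraries (SD, n = 3 each). The proline transfer RNA mt-Tp, on the opposite strand, had 2.78, 6.97 and 0 in the CD8 libraries, where 0 reads in CD8 387 allow a value of up to 2.52, and 2.57, 3.34 and 2.13 in the CD4 libraries. Reads of a transfer RNA and of a precursor that holds it cannot be told apart in these counts.

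The transfer RNA with the highest mean and the one whose groups stood apart are shown 5′ to 3′ from the GENCODE M21 transcripts (GRCm38), with the anticodon in capitals. Both are far shorter than the messengers, at 75 and 67 bases.
mt-Tl1: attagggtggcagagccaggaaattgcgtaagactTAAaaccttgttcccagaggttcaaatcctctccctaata
mt-Tw: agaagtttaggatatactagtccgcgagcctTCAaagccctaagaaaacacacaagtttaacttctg

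No mitochondrial transcript passed the test between CD8 and CD4 libraries. Of 13877 genes tested with limma, 0.49% were called at an adjusted p under 0.05. Of the 13 members tested, 0 were called by limma, edgeR or DESeq2 (which gave mt-Rnr2 no adjusted p), and 1, mt-Tw, had an unadjusted limma p under 0.05, as had 807 of all genes tested. The members' adjusted p ran from 0.630 (mt-Tw) to 0.983 (mt-Tl1). A pseudocount of 1 was added before taking log2, so fold changes (CD8 over CD4) of low genes are understated. mt-Nd1 had means of 28343 ± 4758 in CD8 and 21256 ± 8259 in CD4 libraries (SD, n = 3 each) and a log2 fold change of 0.47 (SE 0.31, 95% interval -0.26 to 1.19). mt-Co1 had means of 115948 ± 12545 and 97661 ± 19594 in CD8 and CD4 libraries and a log2 fold change of 0.26 (SE 0.35, 95% interval -0.54 to 1.07). mt-Nd6 had 98.0 ± 24.3 and 127 ± 39.0 in CD8 and CD4 libraries and a log2 fold change of -0.34 (SE 0.33, 95% interval -1.10 to 0.42). For mt-Co1 the interval runs from 0.687-fold to 2.09-fold, so that equal levels are not shown.

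Point estimates of 6 of the 7 messengers tested lay above 0, and mt-Nd6 lay below. Their median log2 fold change was 0.23, beside 0.039 over all genes tested, of which 55.6% were above 0. The count of 6 of 7 was the same under every other scaling tried. Without CD8 395, mt-Nd4 had a log2 fold change of -0.063 and the median was 0.076, beside 0.049 for all genes. Without CD4 395 the median was 0.43, and without CD4 385, mt-Nd5 stood at -0.010 and the median at 0.12. The ribosomal RNAs had the widest intervals, from -1.38 to 2.39 for mt-Rnr2 and from -1.31 to 1.99 for mt-Rnr1. The log2 fold change of mt-Tw was 1.68 (SE 0.60, 95% interval 0.27 to 3.08, limma adjusted p = 0.630), and its adjusted p ran from 0.414 to 0.9999 over the alternatives. That of mt-Tl1 was 0.096 with all libraries, -0.60 without CD8 395 and -0.37 without CD4 385. That of mt-Tt was -0.12 with all libraries and 0.17 without CD4 395.

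**Figure D5:**
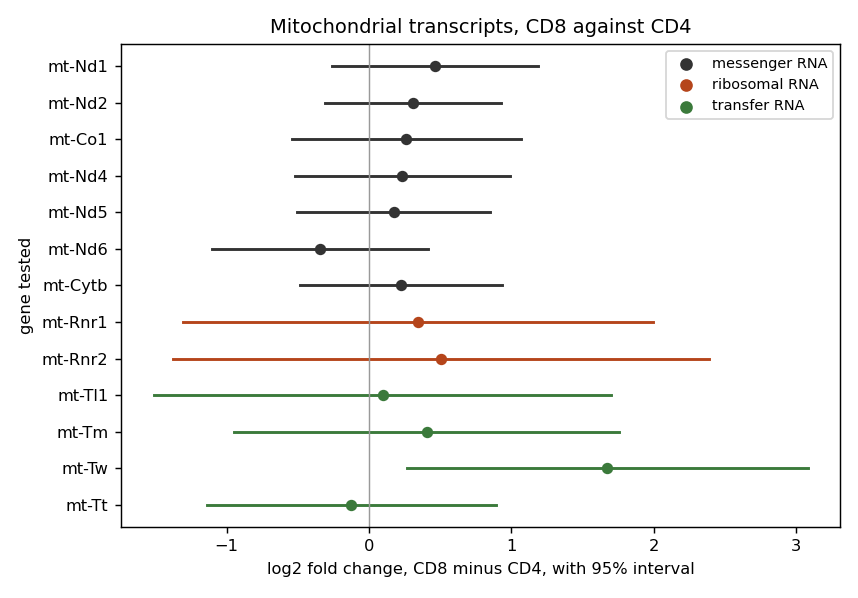
Log2 fold change, CD8 minus CD4, of the 13 mitochondrial transcripts tested (points) with 95% intervals of the limma fit (lines), from 3 CD8 and 3 CD4 libraries. All intervals but that of mt-Tw, 0.27 to 3.08, cross 0, and no transcript was called after adjustment over 13877 genes.

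Nuclear genes that serve the mitochondrial genome also had no called member. Over 9 lists, 206 different genes were tested and 0 were called by limma, edgeR or DESeq2, with 0 at an unadjusted limma p under 0.05. DESeq2 gave Lars2 no adjusted p. Over all 13877 genes tested, 0.49% were called, so that a count of 0 called among 206 is near the background. An unadjusted limma p under 0.05 was reached by 807 of all genes tested. The count of 0 among 206 at that threshold lay below this share, and the gap was not tested. Of the 10 genes of mitochondrial transcription, Tfam, which packages the genome and starts transcription, had 1022 ± 93.4 normalised reads in CD8 and 973 ± 96.0 in CD4 libraries (SD, n = 3 each). Polrmt, the mitochondrial RNA polymerase, had 628 ± 87.7 in CD8 and 718 ± 48.5 in CD4 libraries, and their log2 fold changes were 0.073 and -0.20. The list's median was 0.065. The 12 genes of mitochondrial DNA replication had a median of -0.055. Lig3, which seals breaks in the DNA, had 845 ± 204 in CD8 and 893 ± 133 in CD4 libraries, and Polg, the polymerase that copies the genome, had 1532, 1390 and 1583 in CD8 389, 395 and 387, and 1848, 1819 and 1718 in CD4 385, 393 and 395. The Polg groups did not overlap, but limma gave an adjusted p of 0.946 for a log2 fold change of -0.26 (SE 0.13). Over all genes tested, 4.93% had every CD8 library above every CD4 library. The share in the direction of Polg was not counted. Groups also did not overlap for the mitochondrial ribosomal protein gene Mrpl16, which was higher in the CD8 libraries.

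Genes of RNA handling and translation had small fold changes. The 29 genes of mitochondrial RNA processing and stability had a median log2 fold change of 0.15, with Lrpprc, which binds and stabilises the messengers, at 2030 ± 531 in CD8 and 1815 ± 359 in CD4 libraries (SD, n = 3 each). Tbrg4, of the FASTK family of RNA-binding proteins, had 1786 ± 208 in CD8 and 1646 ± 179 in CD4 libraries. The 15 genes of transfer RNA modification had a median of 0.081, with the methyltransferase Nsun2 at 4122 ± 811 in CD8 and 3659 ± 735 in CD4 libraries, and Trnt1, which adds CCA ends, at 856 ± 210 in CD8 and 846 ± 120 in CD4 libraries. The 13 translation factors had a median of 0.18, with the elongation factors Tufm at 1263 ± 42.6 in CD8 and 1134 ± 236 in CD4 libraries, and Gfm1 at 1203 ± 321 in CD8 and 1008 ± 265 in CD4 libraries. Each of these differences was smaller than the larger SD.

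The other lists gave a similar picture. The 21 genes for inserting and assembling mitochondrially made subunits had a median of 0.11, with the insertase Oxa1l at 1067 ± 98.5 in CD8 and 974 ± 124 in CD4 libraries (SD, n = 3 each), and Letm1 of the inner membrane at 1146 ± 95.1 in CD8 and 1058 ± 5.54 in CD4 libraries. Of 77 mitochondrial ribosomal protein genes, 72 had point estimates above 0 and 5 below, with a median of 0.15 and a range of -0.20 (Mrpl23) to 0.39 (Mrpl16). Over all genes tested, 55.6% were above 0, and the difference from that share was not tested. The most abundant, Mrpl24 and Mrpl12, had 1633 ± 163 and 1324 ± 50.04 in CD8 libraries, and 1598 ± 150 and 1245 ± 173 in CD4 libraries. The 7 regulators of mitochondrial biogenesis had a median of -0.020. Among them the transcription factors Myc and Yy1 had 2361 ± 603 and 2164 ± 172 in CD8 libraries, and 2334 ± 307 and 2244 ± 156 in CD4 libraries.

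A further list held the synthetases that charge mitochondrial transfer RNAs and also named Qrsl1, Gatb and Gatc, which are not synthetases. Of its 22 genes tested, 18 had point estimates above 0, beside 55.6% of all genes tested, and the median was 0.19. Lars2, the leucine synthetase, stood out with 3015, 43454 and 1557 normalised reads in CD8 389, 395 and 387, and 1472, 2369 and 7908 in CD4 385, 393 and 395. CD8 395 was 5.49 times the next highest library, CD4 395. CD8 395 and CD4 395 were also highest and next highest for Rn18s and mt-Rnr2, but the order of the other libraries differed. The other most abundant synthetase, Kars, which charges lysine transfer RNA, had 3316, 2652 and 2570 in the CD8 libraries and 2699, 1846 and 3000 in the CD4 libraries, with no such step. The log2 fold change of Lars2 was 0.96 with a 95% interval of -1.83 to 3.76, and the part of ribosomal RNA in its values was not tested.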

How the data were processed

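The values are a normalised signal, deposited by the authors as 1 number per gene and library. GRCm39 was the build and featureCounts 2.0, STAR 2.7.5c and DESeq2 were tools, per the submitters' processing notes; which annotation, strand setting and rule for reads with several matches applied is not given there. Per the labels' protocols, RNA of sorted cells was extracted with Trizol and libraries were made with a stranded kit for messenger RNA. Division by the smallest value of each library returned whole reads for 100% of values (tolerance 0.001 reads), and the implied size factors equalled the median of ratios recomputed from those reads. No pair of libraries matched within sampling noise (lowest chi-square per degree of freedom 25.4).

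Libraries were grouped by title. The labels do not say whether each number is a mouse, so p-values measure only the spread among these libraries, which may be technical. The test was limma 3.58.1 (R 4.3.3) with a trend on log2(value + 1), two-sided. It took 13877 genes that reached 10 in 3 libraries or more, and Benjamini-Hochberg adjustment ran over all of them. Alternatives were other pseudocounts, filters and scalings, edgeR 4.0.16 and DESeq2 1.42.0 on recovered reads, and fits with libraries left out; share denominators without Rn18s and levels over bases outside copies were added after seeing the data. The code was tested on simulated data. Sums, shares and ratios over members got no test. Copies were sought among GENCODE M21 transcripts with BLAST 2.17.0 at 85% identity or more. That annotation is on GRCm38, so no genome coordinates are printed. The members and lists were chosen with earlier results of these data known. All members are described, and from each list the 2 genes with the highest mean, since none was called; Mrpl23 and Mrpl16 mark a range.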

Additional observations from a re-analysis of the deposited data

How the results depend on the processing

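No member was called in any of the alternatives that gave it an adjusted p, where the lowest was 0.414. The 4 transfer RNAs had no value with a filter at 50, mt-Tm had none without CD8 389, CD8 387, CD4 395 or both libraries numbered 395, and DESeq2 gave mt-Rnr2 no adjusted p. The count of all genes called, 68, was 104 with a pseudocount of 5, 42 with a filter at a value of 50, 319 with DESeq2, 3 without both libraries numbered 395, and 7 to 46 when 1 library was left out, with 7 without CD8 395, 9 without CD8 387, 19 without CD4 393, and 40 without CD8 389 and without CD4 385; fewer libraries enter those fits. Of 213 recomputed fold changes of members, 11 changed sign, all where libraries were left out. Without both libraries numbered 395, the log2 fold changes of mt-Rnr1, mt-Rnr2, mt-Tl1 and mt-Tt were -0.44, -0.36, -0.24 and 0.23. With 1 library left out they ranged from -0.60 to 0.86, -0.57 to 1.10, -0.60 to 0.51 and -0.33 to 0.17, and those of mt-Nd4 and mt-Nd5 from -0.063 to 0.43 and -0.010 to 0.47; the cause was not tested. The CD8 minus CD4 difference in messenger share ranged from 0.135 to 0.486 percentage points. No paired analysis was possible because the groups share 1 library number. Depth limits the transfer RNAs, with 17 to 192 reads each over all libraries, and mt-Atp6, mt-Co3, mt-Co2 and mt-Nd3, with 15 to 61.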
